A study of Macaca fascicularis with 11 samples.

Results

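Stable intermediate runs are short stretches of neighbouring CpG cytosines whose mean methylation in macaque muscle lay between the unmethylated and the fully methylated state, with limited spread between animals. They were found in a table of methylation ratios from reduced representation bisulfite sequencing (RRBS), which sequences the CpG-rich fragments left by restriction digestion after bisulfite has turned unmethylated cytosines into bases read as thymine. Cytosines on chromosomes 1 to 20, except 10 and 11, were put in order with both strands together, and a new run was started where the gap was over 1000 bp. A run of 5 or more cytosines, called dense here, was kept where at least 80% of its cytosines had a mean ratio over the 11 animals from 0.3 to 0.7, and where the standard deviation (SD) of the 11 run means was below 0.1. This left 56 of the 3376 dense runs (1.66%), with 402 cytosines at 347 CpGs. The runs were thus chosen by their measured level and spread, and both are given below as descriptions.

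The samples were 11 muscle biopsies from adult male Cynomolgus macaques, which formed a single group without treatment contrast or control tissue; the study's methods name the quadriceps as the site. The methods describe digestion with MspI, whereas the sample labels describe MspI and TaqαI. The table held 61399 cytosines, 42613 of them on the 18 chromosomes used, each with a ratio from 0 to 1 in every animal. The authors kept CpGs above a minimum read coverage, but no read counts accompany the ratios; how far the depth exceeds that minimum is therefore unknown and no counting interval is given.

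In mammals, DNA methylation is found mainly at CpG dinucleotides, and the maintenance methyltransferase DNMT1 copies it to the new strand after replication, so that the strands of a CpG usually carry the same state. At imprinted regions the copy inherited from a given parent is methylated and the other is not, and a biopsy that mixes methylated and unmethylated cells also gives an intermediate ratio. A ratio taken over reads does not tell alleles from cells, and muscle biopsies hold muscle fibres along with vessel, connective tissue and immune cells.

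Most of the runs were not centred on equal shares of methylated and unmethylated reads. The mean methylation of a run had a median of 46.5% and ranged from 30.1% to 65.0%, and 22 of the 56 runs lay from 45% to 55%. There were 12 runs from 30% to 40%, 26 from 40% to 50%, 12 from 50% to 60% and 6 above that. The runs below 50% numbered 38 and those above it 18. An allele-like level, in the sense of a mean near 50%, was therefore a feature of fewer than 1 in 2 of the runs, and they are called stable intermediate runs here. The run nearest to 50% was chr14:914196-914252, with 5 cytosines and a mean of 49.9% ± 9.27 (SD, n = 11 animals). In single animals this run went from 34.3% to 64.5% with a median of 50%, so a mean close to 50% went together with animals well away from it.

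Spread between animals covered most of the range that the rule allowed. The SD of the 11 run means had a median of 7.77 percentage points and ranged from 3.13 to 9.96, and 4 runs were below 5. In 28 of the 56 runs all 11 animals lay from 30% to 70%. The run with the lowest SD was chr19:60451686-60451750, with 9 cytosines and a mean of 49.4% ± 3.13 (SD, n = 11), and its animals lay between 44.6% and 53.6% with a median of 50.03%. This run was also among the 3 nearest to 50%, although its strand means did not move together: the difference between them had an SD of 12.4 points over the animals. That value does not set the run apart. In the 19 runs with at least 2 cytosines on each strand, the SD of this difference ranged from 4.21 to 18.3. The run with the next lowest SD of run means was chr4:156441609-156441644, with a mean of 45.2% ± 3.24 (SD, n = 11) and animals from 39.7% to 51.1% (median 44.5%). Its level rests in part on a cytosine at 100% in every animal, and its intermediate cytosines alone averaged 36.0% ± 3.78 (SD, n = 11). In chr19:20231593-20232289, with 5 cytosines over 697 bp, the mean was 61.7% ± 4.11 (SD, n = 11) and the animals ranged from 53.5% to 67.0% (median 62.4%). The last run under an SD of 5, chr3:1608103-1608152, named after its values were seen, averaged 35.8% ± 4.15 (SD, n = 11). The 4 runs with the smallest spread thus stood at different levels.

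**Figure D1:**
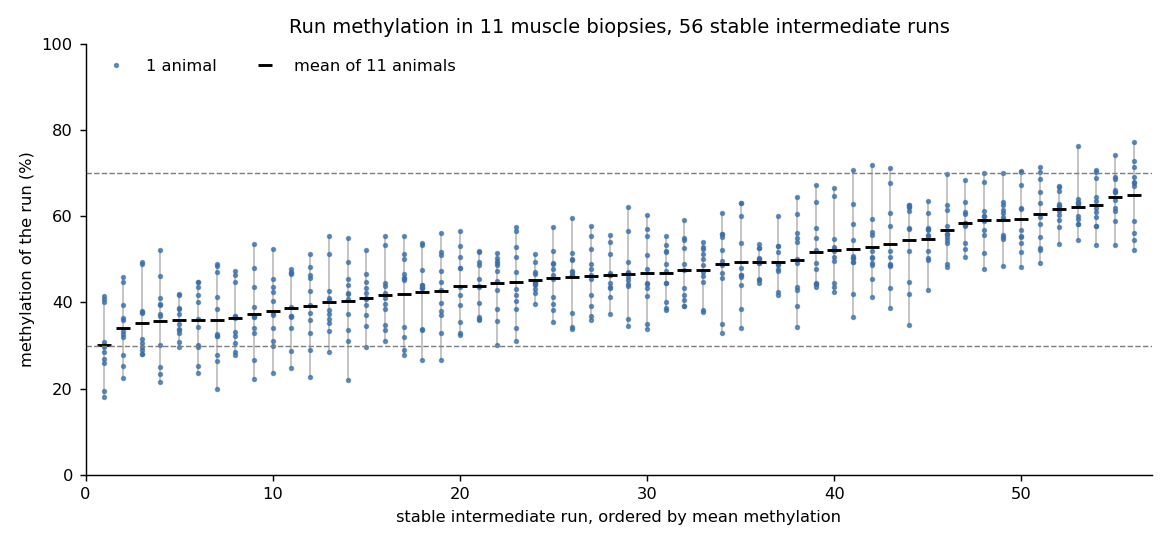
Methylation (%) of the 56 stable intermediate runs in 11 animals, with the runs ordered by their mean. Each point is the mean ratio of a run in 1 animal, grey lines join the lowest and the highest animal, black bars are means, and dashed lines mark 30% and 70%; single animals crossed a dashed line in 28 runs.

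The limits cut through a continuous range. The last runs inside the SD limit were chr20:1163836-1163853, with an SD of 9.77, and chr16:9063081-9063146, with 9.96, and the first outside it were chr15:98649159-98649203, with 10.1, and chr19:1045934-1045965, with 10.2. A further 53 dense runs met the limit on the share of intermediate cytosines and not that on the SD. At the other limit, 10 runs had exactly 80% intermediate cytosines, among them chr19:20231593-20232289 and chr20:1242545-1242624. Just outside it, chr17:5081421-5081511 and chr15:6013014-6013137 each had 77.8%.

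The stable intermediate runs held a small part of all intermediate methylation. Of the 5474 cytosines with a mean from 30% to 70% on these chromosomes, 377 lay in the 56 runs (6.89%), 2317 in other dense runs and 2780 in runs of fewer than 5 cytosines. Of the 4422 single ratios at cytosines of the runs, 78.4% were from 30% to 70%, 12.96% were lower and 8.66% were higher. At the 377 intermediate cytosines alone, 82.3% of the single ratios were in that range, compared with 72.1% at intermediate cytosines of other dense runs and 71.7% outside dense runs. The limit on the SD bears on this share, so it is a description.

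The runs were small. In 25 of them there were exactly 5 cytosines (44.6%, compared with 28.7% of all dense runs), and 5 had at least 10 (8.93%, compared with 23.3%). Their span had a median of 54 bp, from 17 to 1316 bp, compared with a median of 64 bp over all dense runs, and 82.1% spanned at most 100 bp, compared with 70.5%. In 34 runs all cytosines lay on the same strand (60.7%, compared with 66.7% of dense runs). These are descriptions, since a limit on the share of cytosines is passed more or less easily depending on their number.

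The longest run, chr14:2631933-2633248, held 25 cytosines over 1316 bp, all of them intermediate on average. Its mean was 46.4% ± 5.45 (SD, n = 11), with 37.2% in the lowest animal, a median of 46.3% and 55.7% in the highest. Its cytosines fell into 4 blocks separated by more than 100 bp, with means of 41.3% ± 9.48, 48.8% ± 9.14, 33.6% ± 11.1 and 51.0% ± 9.45 (SD, n = 11). The block means differed by up to 17.5 percentage points, and each block spread more between animals than the whole run did. The next run by number of cytosines, chr1:124573781-124573857, had 23 in 77 bp and was level along its length, with cytosine means from 42.0% to 49.5%. Its mean was 45.8% ± 7.78 (SD, n = 11), and the animals ranged from 33.8% to 59.5% (median 47.1%). In chr8:112790842-112790909, 22 cytosines in 68 bp averaged 46.2% ± 7.26 (SD, n = 11), with animals from 36.0% to 57.7% (median 46.4%). The remaining runs with at least 10 cytosines were chr16:52451733-52451788, with 16 and a mean of 49.5% ± 5.13 (SD, n = 11), and chr2:65711-65918, named after its values were seen, with 12 and a mean of 56.8% ± 6.13 (SD, n = 11). Thus 4 of these 5 longer runs averaged between 45% and 50%.

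**Figure D2:**
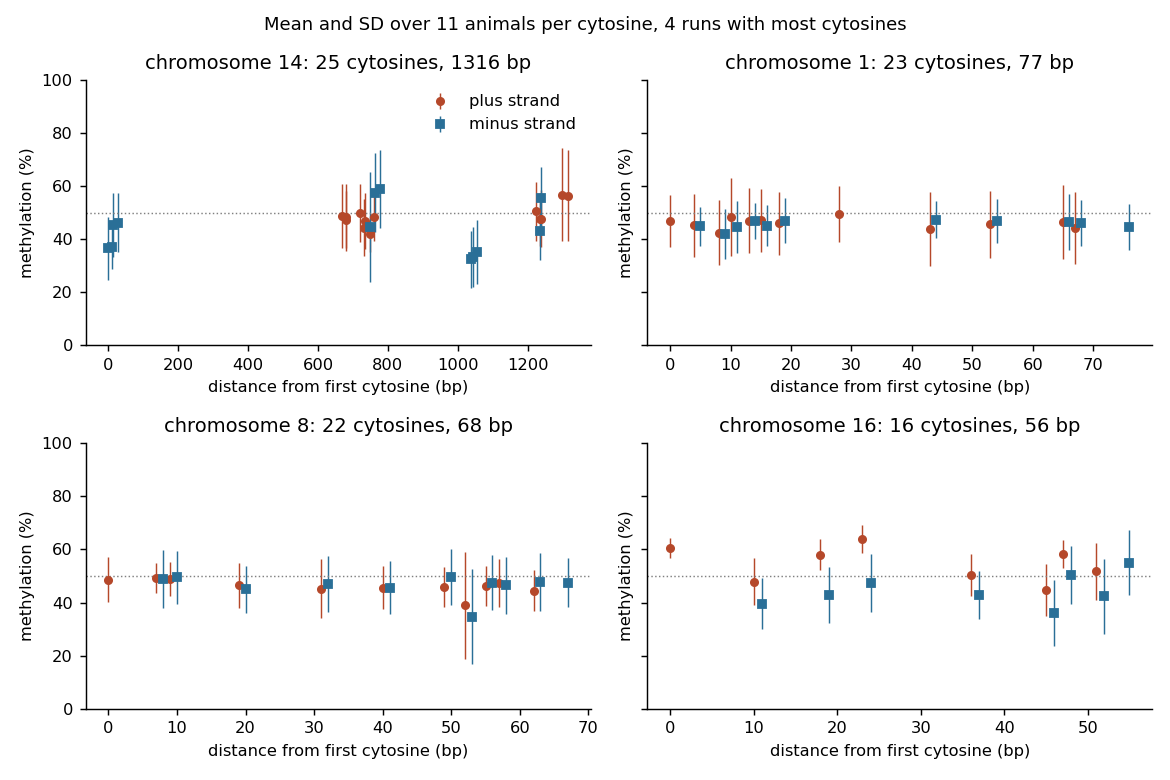
Mean methylation (%) of each cytosine against its distance (bp) from the first cytosine in the 4 stable intermediate runs with the most cytosines. Points are means, bars are the SD over 11 animals, circles are plus strand and squares minus strand cytosines; the run on chromosome 1 stays between 42.0% and 49.5%, and in that on chromosome 16 the plus strand lies above the minus strand at each CpG listed on both.

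An intermediate mean did not always come from intermediate cytosines alone, although 31 of the 56 runs held no others. The range of cytosine means within a run had a median of 25.7 percentage points and went from 3.02 to 68.8; it was below 15 in 17 runs and above 30 in 18. The most even run was chr12:53208053-53208083, whose 6 cytosines averaged between 38.3% and 41.3%. It was followed by chr4:71190595-71190626, from 38.8% to 42.9%, and chr9:12003863-12003911, from 40.3% to 44.5%. The most uneven was chr4:156441609-156441644, where 1 of 7 cytosines averaged 100% and the lowest averaged 31.2%. In chr8:61608686-61608710 the cytosine means went from 32.1% to 94.1%, and in chr20:276491-276588 from 2.79% to 63.9%. In these runs a single cytosine at an end of the scale was tolerated by the 80% limit. Over their intermediate cytosines alone they averaged 36.0%, 42.5% and 42.0%, in the same order. Runs that missed only the SD limit were more even, with a median range of 18.6 points.

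**Figure D3:**
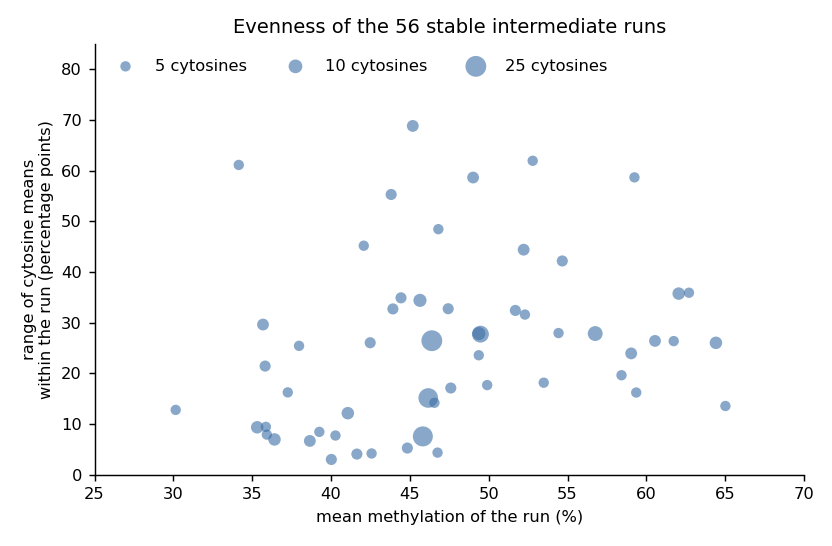
Range of cytosine means within a run (percentage points) against the mean methylation of the run (%) for the 56 stable intermediate runs, 1 point per run, with area growing with the number of cytosines. Ranges go from 3.02 to 68.8 points, and both even and uneven runs occur near 45%.

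In most runs the alternate cytosines varied together over the animals. When the cytosines of a run were divided alternately into a pair of sets by position and each set was averaged per animal, the Pearson correlation of the paired averages over the 11 animals had a median of 0.743 across the 56 runs and ranged from -0.611 to 0.972. It was above 0.5 in 45 runs. It was below 0 in 3 runs, and these included runs with a very small SD: chr19:60451686-60451750, with the lowest SD, had -0.337, and chr19:20231593-20232289, with the third lowest, had -0.611. A run mean spreads less when its sets of cytosines are negatively correlated, so the limit and the ranking by SD favour such runs. The remaining one, chr19:3342496-3342547, named after its values were seen, had -0.0115. In the 53 runs that missed only the SD limit the median was 0.927, in dense runs with a mean below 30% it was 0.390, and in those above 70% it was 0.270. The limit on the SD itself separates runs with lower from runs with higher correlation, so the medians of 0.743 and 0.927 differ in part by construction. Neighbouring cytosines also share libraries and often reads, and these values describe the runs, with no test. Between different runs the animals were ordered differently: over the 1540 pairs of runs the correlation had a median of 0.0109 and went from -0.839 to 0.917.

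Averaged over the 56 runs, methylation of an animal was 47.4% ± 1.41 (SD, n = 11), from 44.7% in animal 5295 to 49.4% in animal 2624. Animal 5295 was the lowest animal in 11 runs and the highest in 1. Between 48 and 53 of the 56 runs (median 51) lay from 30% to 70% in an animal. At cytosines where the other animals averaged below 10%, animals 2606, 2646, 5296 and 5272 stood apart, with means of 4.51% to 5.35% compared with 2.75% to 2.95% in the other 7. In the stable intermediate runs the same 4 animals averaged from 46.3% to 48.5%, within the range of the rest.

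To measure stability in values that had not chosen the runs, the rule was applied 11 times, each time to 10 animals, and the absolute difference from their mean was taken in the animal left out. The question was whether the left-out animal lay closer to the others in stable intermediate runs than at other intermediate cytosines. In the runs this deviation was between 8.17 and 12.4 percentage points in an animal, with a median of 9.63. At the other intermediate cytosines of dense runs it was between 9.89 and 13.2 (median 11.4), and at intermediate cytosines outside dense runs between 10.2 and 13.4 (median 12.03). The other intermediate cytosines of dense runs included those of 46 to 56 runs per set of 10 animals that missed only the SD limit. The same limit thus shaped both of these classes. The values of the classes overlapped, and 10 of 11 animals were lower in the stable intermediate runs in each comparison, animal 2654 being the exception in both. The mean was 9.63 ± 1.15 (SD, n = 11) in the runs and 11.4 ± 1.01 in the rest of the dense runs, a difference of -1.75 ± 1.16 points (two-sided exact permutation test over 2048 sign changes, p = 0.00293; adjusted over the 2 comparisons by the Benjamini-Hochberg method, p = 0.00293). Outside dense runs it was 11.8 ± 1.15, a difference of -2.18 ± 1.03 points (exact permutation test, p = 0.00195, adjusted p = 0.00293). With 100% intermediate cytosines required, the runs too held intermediate cytosines only. The differences were then -1.93 and -2.40 points (exact permutation test, adjusted p = 0.00195 for both).

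**Figure D4:**
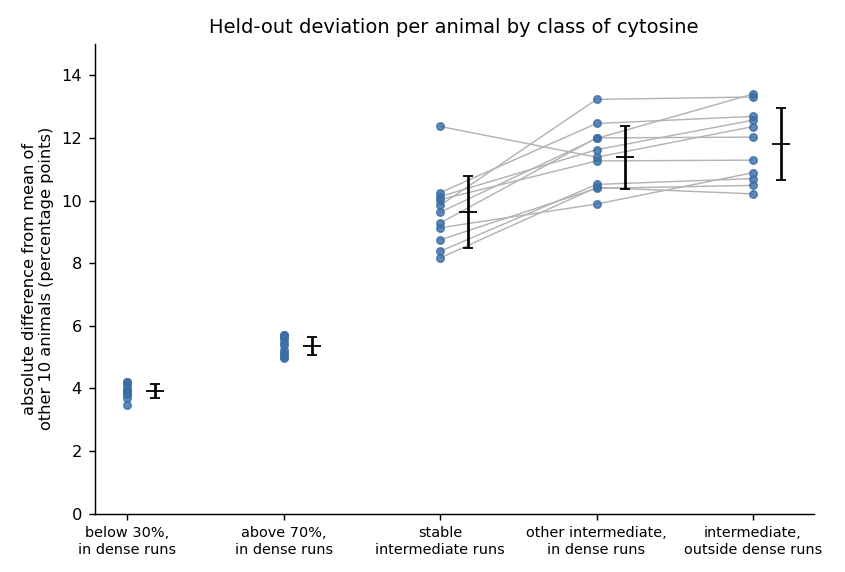
Mean absolute difference (percentage points) of a left-out animal from the mean of the other 10, by class of cytosine chosen without that animal. Points are the 11 animals, grey lines join an animal across the intermediate classes, and black marks are mean and SD; 10 of 11 animals are lower in stable intermediate runs than in each other intermediate class.

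The difference from the rest of the dense runs depended on the limit on the SD. Without it, 109 runs met the remaining rule. Their difference from the other intermediate cytosines of dense runs was -0.266 points (exact permutation test, adjusted p = 0.354), with 9 of 11 animals lower in the runs. Under the other alternatives tried, the adjusted p of this test was from 0.000977 to 0.0313. Dropping the limit also moved the runs that had missed only it from the comparison class to the runs, so both sides changed. Against cytosines outside dense runs the difference was -0.901 points without the limit (exact permutation test, adjusted p = 0.0156), again with 9 of 11 animals lower. Under the other alternatives the adjusted p of that test was from 0.000977 to 0.0313. With intermediate neighbours as the only requirement, a smaller deviation than at other intermediate cytosines of dense runs was thus not detected. The sets of 10 animals overlap, so the 11 deviations are not fully independent, and the part of read depth was not tested. In simulated data with no difference, the comparison with the rest of the dense runs passed the threshold more often than its p-values state. It did so toward larger deviations in the runs. However, a set of dense runs had been put at 50% there, where counting error is largest, and cytosines were drawn independently. The simulations thus differed from the measured data and were too few to give an error rate. The p-values of these comparisons are therefore not calibrated. With levels matched in bins of 0.1, the measured differences were -1.65 and -2.10 points (exact permutation test, adjusted p = 0.00391 for both).

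At the level of whole runs, between 83.3% and 92.6% of the runs chosen without an animal were from 30% to 70% in that animal. The left-out animal differed from the run mean of the others by 7.14 ± 0.877 points (SD, n = 11) in these runs, and by 11.0 ± 1.82 in runs that missed only the SD limit, with the lower value in the chosen runs in 11 of 11 animals. On average, low spread among 10 animals thus extended to the animal left out. At single cytosines of dense runs the deviation was 3.91 ± 0.219 (SD, n = 11) where the others averaged below 30% and 5.35 ± 0.282 above 70%; counting error in a ratio is largest near 50% and small near 0% and 100%, so these values are not compared with those of the runs.

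The strands of a CpG were compared at the 2446 CpGs listed on both, of which 55 were in 13 of the stable intermediate runs. A CpG was called where limma gave an adjusted p below 0.05 over all 2446 and the strands differed by at least 10 percentage points on average. In the runs 5 of 55 CpGs were called (9.09%), compared with 22.2% of all CpGs tested. Since the limits on the mean of each cytosine also limit how far the strands can differ, CpGs with both strands from 30% to 70% give a closer comparison. Among these, 4 of 53 were called in the stable intermediate runs (7.55%) and 61 of 185 elsewhere (33.0%), and the median absolute difference was 4.00 and 7.15 points. The 55 CpGs are not independent, as 27 of them were in 3 runs, and whether the runs differ from other intermediate CpGs in this respect was not tested. Without animal 2673, 8 of the 55 were called.

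The called CpGs lay in 3 runs, and 3 CpGs of all 55 are named for the largest differences. At chr4:156441609 the plus strand was at 100% and the minus strand at 32.4% on average, a difference of 67.6 ± 3.27 points (SD, n = 11; limma adjusted p = 1.01e-13), with the plus strand higher in 11 of 11 animals. This is the cytosine that made its run the most uneven. At chr19:60451739 the plus strand was at 32.1% and the minus strand at 54.2%, with a difference of -22.1 ± 16.2 points (SD, n = 11; limma adjusted p = 0.00200) and the minus strand higher in 11 of 11 animals. The same run, which had the lowest SD of all, held chr19:60451714, with a difference of -12.3 ± 14.3 points (limma adjusted p = 0.0306) and the minus strand higher in 9 of 11. The third largest difference was not called: at chr8:61608686 the plus strand was at 33.1% and the minus strand at 51.2%, a difference of -18.1 ± 25.7 points (SD, n = 11; limma adjusted p = 0.0729), with the minus strand higher in 8 of 11. At chr16:52451756 the strands were at 63.7% and 47.4%, a difference of 16.3 ± 11.3 points (SD, n = 11; limma adjusted p = 0.00143), and chr16:52451751 differed by 15.2 ± 11.4 (limma adjusted p = 0.00262), with the plus strand higher in 11 of 11 animals at both. The CpGs at chr19:60451714, chr16:52451756 and chr16:52451751 were called and were named after their values were seen. Along the run on chromosome 16 all 7 CpGs listed on both strands had the higher mean on the plus strand.

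**Figure D5:**
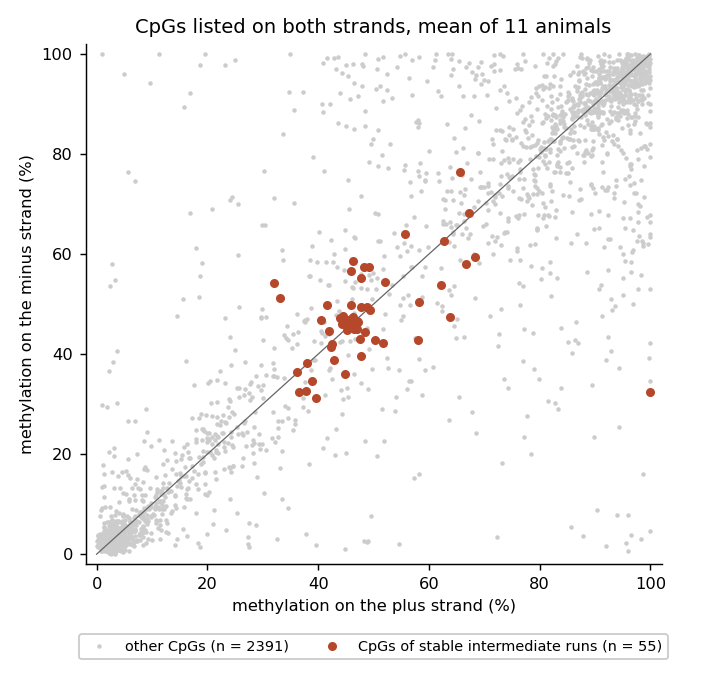
Mean methylation (%) over 11 animals on the minus strand against the plus strand at CpGs listed on both, with 55 CpGs of stable intermediate runs in red and the others in grey. The diagonal marks equal strands; the red point at the right edge is the CpG on chromosome 4 where the plus strand is at 100% and the minus strand at 32.4%.

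Strand means were also compared within runs that had at least 2 cytosines on each strand, which need not belong to the same CpGs. In these 19 runs the absolute difference had a median of 9.87 points and ranged from 0.201 to 24.4. The plus strand was higher in 13 and the minus strand in 6. The largest, in the run on chromosome 4, rests on the cytosine at 100%: over its intermediate cytosines the plus strand averaged 38.7% and the minus strand 34.7%, a difference of 3.92 points. It was followed by chr8:1366078-1366232, where the plus strand averaged 35.3% and the minus strand 58.6%, and chr20:1242545-1242624, where they averaged 71.2% and 49.995%. In the last of these the plus strand held a cytosine at 84.9%, and over intermediate cytosines it averaged 64.3%, a difference of 14.3 points, so its rank rests on that cytosine. Position and strand cannot be told apart there, since these 2 runs held no CpG listed on both strands.

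The runs were spread over 16 of the 18 chromosomes. None was among the 150 dense runs of chromosome 6 or the 85 of chromosome 18, compared with a share of 1.66% over all dense runs. These small counts do not set the 2 chromosomes apart. Chromosome 19 held 8 of its 336 dense runs (2.38%), and chromosome 4 had the highest share, 5 of 145 (3.45%). Within 5 Mb of the first base or the last listed position of a chromosome lay 19 runs (33.9%), compared with 24.0% of dense runs. The nearest listed run on either side was a median of 70222 bp away, compared with 75986 bp for all dense runs. Of the 112 neighbouring runs, 61 had a mean below 30% (54.5%), 18 were intermediate (16.1%) and 33 were above 70% (29.5%), and for all dense runs these shares were 58.7%, 15.7% and 25.6%. The runs were flanked by low methylation on both sides in 18 cases, by low on one side and high on the other in 16, and by intermediate runs on both sides in 1. The makeup of their neighbours was close to that of dense runs in general. The genome sequence and gene annotation of the authors' build were not used here, so sequences, genes and known imprinted regions are not given.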

How the data were processed

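The deposited values are methylation ratios, fractions from 0 to 1, 1 per cytosine and animal. According to the study's methods, the authors trimmed the reads, aligned them with RRBSMAP to the genome assembly of this species by Yan et al., kept CpGs with a minimum read coverage and took ratios from methratio; tool versions are not given in the sources used here. Coordinates are those of that genome, counted as in the deposited table. Columns carry animal numbers that no sample label gives, so they were used as 11 animals of 1 group.

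Runs, descriptions and left-out deviations were computed with Python 3.11.15, numpy 2.4.6 and pandas 2.3.3, figures with matplotlib 3.10.9, and the plus minus minus strand difference per CpG with limma 3.58.1 in R 4.3.3 (intercept model, Benjamini-Hochberg over all CpGs listed on both strands). Left-out deviations were compared by an exact permutation test of paired differences over animals. Both were tested on simulated data. Without a simulated difference, the unmatched comparison of deviations passed the threshold more often than its p-values state, toward larger values in the runs. A set of dense runs had been put at 50% in these data, where counting error is largest, and cytosines were drawn independently. The direction of that excess therefore does not carry over to the measured runs. The simulations were also too few to give an error rate for this comparison or for matched levels. No ratio was missing or normalized.

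Runs named are the 3 with the most cytosines, nearest to 50%, with the lowest SD, with the widest and with the narrowest range of cytosine means and with the largest strand difference, and 2 on each side of both limits; CpGs named are the 3 with the largest strand difference. The members and lists were chosen with earlier results of these data known. Alternatives were gaps of 500 and 2000 bp, strands of a CpG counted once, at least 10 cytosines, bounds of 0.2 and 0.8 or 0.4 and 0.6, 100% intermediate cytosines, an SD below 0.05 or without limit, ratios of exactly 0 or 1 left out, levels matched in bins of 0.1, arcsine square root ratios, an exact permutation test per CpG, all sequences, and leaving out each animal or the 4 that stood apart. Leaving cytosines outside the bounds out of the run means was chosen after seeing the data. Coverage minimums were not varied, as coverage per cytosine was not used here.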

Additional observations from a re-analysis of the deposited data

Results flagged for a closer look

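The same rule was met on sequence that had been set aside. On chromosome 10, 7 of 719 dense runs met it (0.974%), with 45 cytosines and a mean of 48.7%, and on unplaced scaffolds and other unplaced sequence 14 of 419 (3.34%), with 107 cytosines and a mean of 53.0%. They are listed because both counts are above the 3 that a count of 0 allows, which is not a test of a difference. The corresponding share on the chromosomes used was 1.66%, above that on chromosome 10 and below that on unplaced sequence. The difference between these shares was not tested.

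On chromosome 11, 2 of 302 dense runs met the rule. On chromosome X of these male animals 0 of 40 did, which allows a share of up to 7.5%, so a share like that of the other chromosomes was not detectable there.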

How the results depend on the processing

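The number of runs followed the limits: 5 with at least 10 cytosines, 177 with bounds of 0.2 and 0.8, 15 with bounds of 0.4 and 0.6, 31 with 100% intermediate cytosines, 4 with an SD below 0.05 and 109 without a limit on the SD. Mean methylation moved by more than 1 SD to 48.9% with at least 10 cytosines and to 49.2% with bounds of 0.2 and 0.8. Without a limit on the SD the left-out deviation against the rest of the dense runs was -0.266 points (adjusted p = 0.354); the other 22 alternatives kept its direction and its side of the threshold, as did all 23 against cytosines outside dense runs. With levels matched in bins of 0.1 the differences were -1.65 and -2.10 points (adjusted p = 0.00391 for both). With cytosines outside the bounds left out of the run means, chosen after seeing the data, mean methylation was 47.7%. Over all sequences 1087 of 4043 CpGs differed between strands (26.9%, compared with 22.2%), for a cause that was not tested.

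Leaving out each animal in turn gave 52 to 60 runs, mean levels of 46.9% to 48.3%, differences of -2.07 to -1.50 and -2.44 to -1.97 points, and 520 to 543 CpGs that differed between strands, 4 to 8 of them in the runs; the 8 came without animal 2673, and the cause was not tested. Of the 56 runs, 42 met the rule in each of the 11 sets of 10 animals and 12 in at most 9 of them, and 81 runs met it at least once. Without the 4 animals that stood apart, 58 runs were found, overlapping 49 of the 56, and the differences were -1.73 and -2.05 points (adjusted p = 0.0313 for both).

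Without read counts, the precision of each ratio is not known beyond the minimum coverage that the authors set, and a run of 5 cytosines within 1 fragment can rest on the same reads. The spread between animals includes this counting error. With 1 tissue and 1 group, neither the tissue nor the sex dependence of the runs can be examined.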

Other observations

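The most alike pair of stable intermediate runs lay on different chromosomes. The profiles of chr1:160801127-160801158 and chr9:12003863-12003911 over the 11 animals had a Pearson correlation of 0.917, and those of chr17:583231-583544 and chr2:65711-65918 one of 0.909. These are the highest of 1540 values, picked after they were seen, and have no test.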
